A study of Rattus norvegicus with 9 samples.

Results

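The genes described here encode the TGF-beta ligands (Tgfb1, Tgfb2, Tgfb3), their receptors (Tgfbr1, Tgfbr2, Tgfbr3), a pair of intracellular SMAD proteins (Smad3, Smad7) and the latency proteins Ltbp1 and Ltbp2. They were chosen by name, as the entries of the expression table that the array's probe table pairs with exactly 1 of these symbols. Of the 10 genes, 9 had such an entry, each a single one, among 14506 genes tested. Tgfbr2, the type II receptor, was not analysed here. The cells were pancreatic stellate cells, the fibroblast-like cells that make scar matrix in the pancreas, taken by density gradient from male Sprague Dawley rats. They were grown for 72 hours in serum-containing medium on Matrigel (2 arrays), on collagen I (3 arrays) or on plastic without a coating (4 arrays), and total RNA was hybridised to Affymetrix whole-transcript rat arrays. Matrigel is a basement membrane extract of a mouse tumour, rich in laminin and collagen IV, whose usual preparations also carry growth factors, TGF-beta among them. Collagen I is the main fibrillar collagen of scar tissue. The sources used here do not give the age of the animals, nor whether each array stands for its own animal, so every p-value reflects only the spread among these samples, which may be technical.

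TGF-beta is the best known inducer of matrix production in stellate cells and fibroblasts. Each ligand is secreted bound to its own cleaved propeptide, and this latent complex is tethered to the extracellular matrix by latent TGF-beta binding proteins until proteases or integrins release the active form. Active ligand assembles the type II and type I receptors, with betaglycan, the product of Tgfbr3, presenting ligand, most of all that of Tgfb2. The type I receptor, product of Tgfbr1, phosphorylates SMAD2 and SMAD3, which enter the nucleus with SMAD4, while SMAD7 is induced by the signal and blocks the receptor. Tgfb1 itself is a known target of this signal.

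Expression is given as log2 values that the authors normalised by RMA, so a difference of 1 is a doubling. Array medians lay between 4.08 and 4.18. Correlation over genes, which do not count as replicates, was r = 0.991 to 0.996 for arrays of a shared surface, and r = 0.975 to 0.989 where the surface differed. Levels of different genes are not set against each other, since probe sets differ in brightness. The lowest value of any described gene was 4.23, for Tgfb2 on a collagen array, and that was the only value under log2 4.25, the 40th percentile of the genes' mean levels, below which a level is called dim here. The titles carry a letter (A, P, S or Z) of unstated meaning that recurs across surfaces. Letters A and S stand on Matrigel arrays, A, P and Z on collagen arrays, and all 4 on plastic arrays.

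On either coating the ligand genes moved in opposite directions. Tgfb1 rose while Tgfb2 and Tgfb3 fell, Ltbp2 rose while Ltbp1 fell, and the inhibitory Smad7 rose. Matrigel against plastic gave 6 of 9 measured genes past an adjusted p of 0.05, 3 higher and 3 lower, where 10.4% of all genes tested passed (4.52% higher and 5.85% lower). Collagen I against plastic gave the same 6 genes in the same directions, where 6.12% of all genes passed (2.95% higher and 3.17% lower). These comparisons share the 4 plastic arrays, so they are not separate observations. Calls are two-sided, from limma fitted on all genes and all 9 arrays, with Benjamini-Hochberg adjustment over the genes tested in each comparison. All 9 measured genes had collagen arrays that did not overlap the plastic arrays, 3 above and 6 below, a separation found for 17.2% of all genes (8.04% above and 9.2% below). On Matrigel this held for 7 of 9 genes, 3 above and 4 below, against 30.2% of all genes (13.6% above and 16.6% below). At an unadjusted p under 0.05 there were 6 of 9 genes on Matrigel, against 24.1% of all genes, and 9 of 9 on collagen I, against 19.0%. RNA was taken from whole dishes, so fewer cells of a type and less RNA per cell cannot be told apart.

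**Figure D1:**
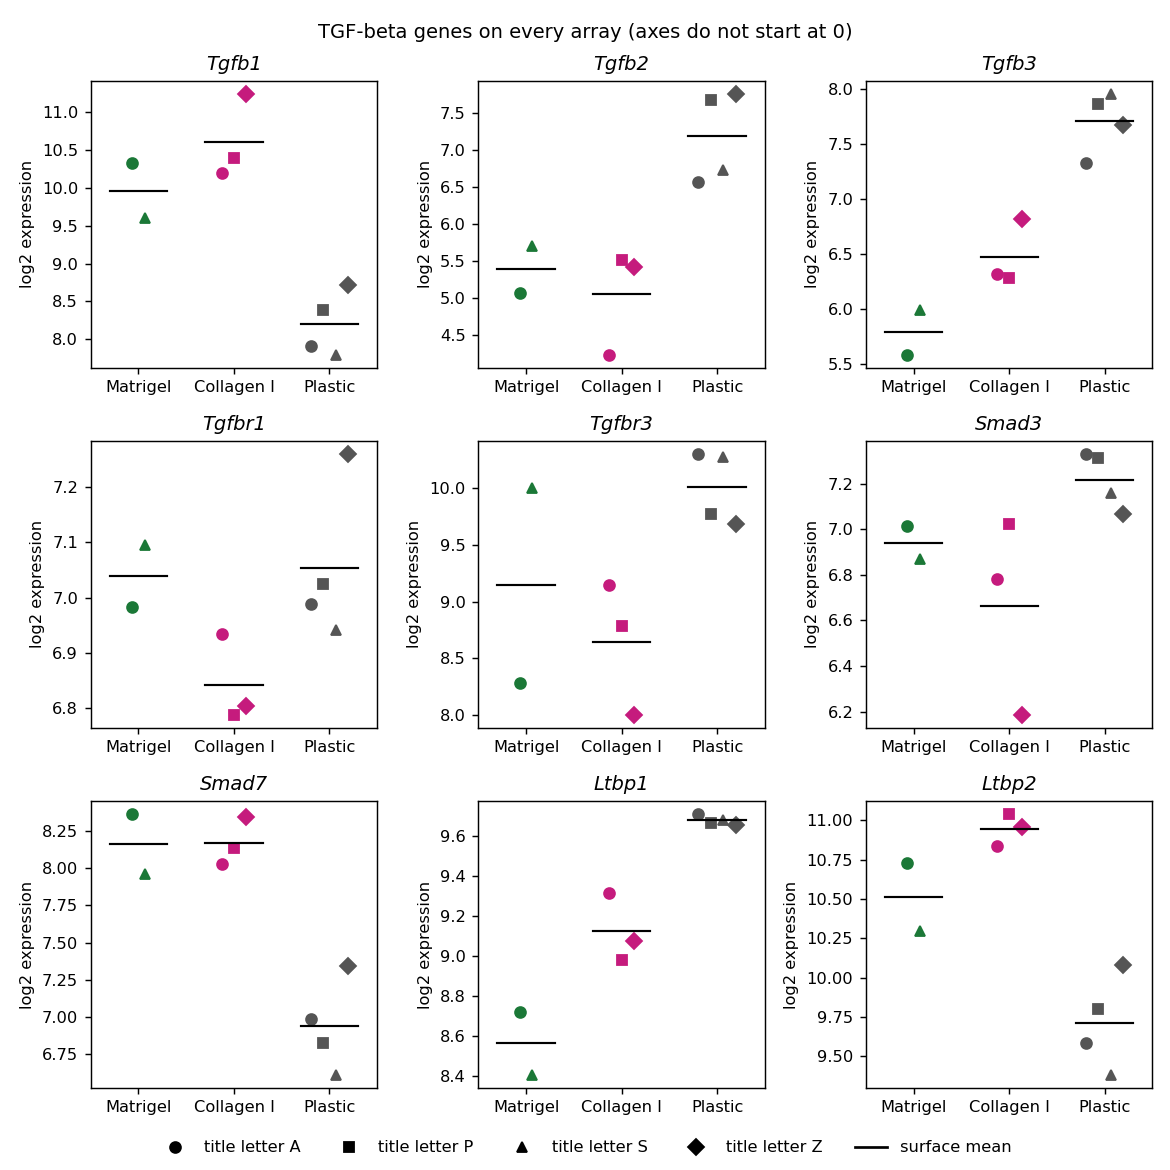
Log2 expression (vertical axes, which do not start at 0) of the 9 measured TGF-beta genes on every array, by culture surface. Marker shape gives the title letter and the black line the surface mean; Tgfb1, Smad7 and Ltbp2 sit higher on Matrigel and collagen I than on plastic, and Tgfb2, Tgfb3 and Ltbp1 sit lower.

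Tgfb1, the ligand most often tied to fibrosis, stood at 10.33 and 9.60 on the 2 Matrigel arrays, at 10.19, 10.39 and 11.24 on the collagen arrays and at 7.91, 8.39, 7.80 and 8.71 on the plastic arrays. Every coated array lay above every plastic array. The Matrigel mean was 9.96 ± 0.52 (SD, n = 2), the collagen mean 10.61 ± 0.56 (SD, n = 3) and the plastic mean 8.20 ± 0.43 (SD, n = 4). That is a rise of 1.76 ± 0.36 (log2, SE) or 3.39-fold on Matrigel (limma adjusted p = 0.0169) and of 2.41 ± 0.32 or 5.30-fold on collagen I (limma adjusted p = 0.00313). Between arrays of the same title letter Tgfb1 was 2.42 (A) and 1.80 (S) higher on Matrigel than on plastic, and 2.28 (A), 2.0 (P) and 2.53 (Z) higher on collagen I. Whether letters pair arrays is not known, here and for the same-letter differences below. Without Matrigel replicate 1 the Matrigel rise was 1.39 and did not pass (adjusted p = 0.135).

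The bases upstream of the annotated Tgfb1 start are shown because this ligand rose on both coatings. They come from RefSeq (GRCr8, chr1:90324062-90324311, plus strand), are given 5′ to 3′ and end at the base before the gene's first annotated base, which may not be the start these cells use.
Tgfb1 upstream: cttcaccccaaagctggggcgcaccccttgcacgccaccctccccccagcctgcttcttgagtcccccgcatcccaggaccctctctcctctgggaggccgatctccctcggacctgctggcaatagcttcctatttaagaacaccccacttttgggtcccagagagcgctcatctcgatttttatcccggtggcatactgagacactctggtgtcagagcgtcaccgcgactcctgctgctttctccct
These 250 bases held none of 4 motifs searched on both strands, namely the AP-1 site TGANTCA, the cyclic AMP response element TGACGTCA, the SMAD palindrome GTCTAGAC and the GC box GGGCGG. Among 33469 RefSeq windows of the same length, 6.34%, 1.59%, 0.173% and 30.5% held these motifs, in that order. The base composition was 60.0% G or C, against a median of 51.2% over those windows.

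Tgfb2, a ligand that depends on betaglycan for efficient receptor binding, had values of 5.06 and 5.70 on Matrigel, of 4.23, 5.50 and 5.42 on collagen I and of 6.56, 7.67, 6.73 and 7.75 on plastic. All coated arrays lay below all plastic arrays, and collagen replicate 1 was the lowest. It fell by 1.80 ± 0.46 on Matrigel (limma adjusted p = 0.0416) and by 2.13 ± 0.40 on collagen I (limma adjusted p = 0.0169). Between arrays of the same letter the Matrigel minus plastic difference was -1.50 (A) and -1.03 (S), and the collagen I minus plastic difference -2.33 (A), -2.17 (P) and -2.33 (Z). The Matrigel call was lost on leaving out any of 6 arrays: either Matrigel array, collagen array 2 or 3, or plastic array 2 or 4 (adjusted p between 0.0553 and 0.232).

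Tgfb3, the ligand known from palate fusion and low-scar repair, read 5.59 and 5.99 on Matrigel, 6.32, 6.28 and 6.82 on collagen I and 7.33, 7.87, 7.96 and 7.68 on plastic. The surfaces did not overlap, with Matrigel lowest and plastic highest. It fell by 1.92 ± 0.21 or 3.79-fold on Matrigel (limma adjusted p = 0.00148) and by 1.24 ± 0.19 or 2.36-fold on collagen I (limma adjusted p = 0.00629). Same-letter differences were -1.75 (A) and -1.97 (S) for Matrigel minus plastic and -1.02 (A), -1.59 (P) and -0.86 (Z) for collagen I minus plastic. This call kept its direction and its side of the threshold on both coatings in all 21 alternative settings run for each, some of which are the same fit.

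Neither measured receptor gene passed on either coating. Tgfbr1, the type I receptor kinase gene, was nearly level, at 6.98 and 7.10 on Matrigel, 6.93, 6.79 and 6.80 on collagen I and 6.99, 7.02, 6.94 and 7.26 on plastic. Its collagen arrays lay just under the plastic arrays and its Matrigel arrays among them. The fitted difference was -0.01 on Matrigel, with a 95% confidence interval from -0.24 to 0.22 (limma adjusted p = 0.964), and -0.21 on collagen I, from -0.42 to -0.01 (limma adjusted p = 0.238).

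Tgfbr3, which encodes betaglycan, had 8.28 and 10.00 on Matrigel, 9.15, 8.78 and 8.0 on collagen I and 10.30, 9.78, 10.28 and 9.69 on plastic. The Matrigel arrays stood 1 below and 1 within the plastic range, with an SD of 1.22 (n = 2), while the collagen arrays all lay below it. The difference was -0.87 on Matrigel, with a 95% interval from -1.94 to 0.20 (limma adjusted p = 0.312), and -1.37 on collagen I, from -2.31 to -0.42 (limma adjusted p = 0.104). Leaving out Matrigel replicate 2 gave -1.73 on Matrigel (adjusted p = 0.0497), and leaving out Matrigel replicate 1 gave -0.01 (adjusted p = 1.00). The collagen difference, still -1.37, passed when Matrigel replicate 1 or 2 was left out, which takes the Matrigel spread out of the fit (adjusted p = 0.0356 in each case).

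Of the SMAD genes, the inhibitory one rose and the signalling one did not pass. Smad7 stood at 8.37 and 7.96 on Matrigel, 8.03, 8.14 and 8.35 on collagen I and 6.98, 6.82, 6.61 and 7.34 on plastic. All coated arrays lay above all plastic arrays. It rose by 1.23 ± 0.20 on Matrigel (limma adjusted p = 0.00671) and by 1.24 ± 0.18 on collagen I (limma adjusted p = 0.00459), or 2.34-fold and 2.36-fold. Same-letter differences were 1.39 (A) and 1.36 (S) for Matrigel minus plastic and 1.05 (A), 1.32 (P) and 1.01 (Z) for collagen I minus plastic. Without Matrigel replicate 1 the Matrigel difference was 1.03 and did not pass (adjusted p = 0.0649).

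Smad3 read 7.01 and 6.87 on Matrigel, 6.78, 7.02 and 6.19 on collagen I and 7.33, 7.31, 7.16 and 7.07 on plastic. Every coated array lay below every plastic array, by little for most, and collagen replicate 3 was lowest. The difference was -0.28 on Matrigel, with a 95% interval from -0.73 to 0.18 (limma adjusted p = 0.478), and -0.55 on collagen I, from -0.96 to -0.15 (limma adjusted p = 0.125). With the title letter as a fixed block, which pairs the collagen and plastic arrays, the collagen difference was -0.57 and passed (adjusted p = 0.0404), making 7 of 9 genes. It did not pass with the letter as a random block (-0.56, adjusted p = 0.0745, 6 of 9 genes) or on shared letters alone (-0.57, adjusted p = 0.184).

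The latency protein genes Ltbp1 and Ltbp2 moved apart. LTBP1 binds the propeptides of TGF-beta and anchors the latent complex in fibronectin and fibrillin matrix. Ltbp1 had 8.72 and 8.41 on Matrigel, 9.31, 8.98 and 9.08 on collagen I and 9.71, 9.66, 9.68 and 9.65 on plastic. The plastic arrays were nearly identical (SD 0.02, n = 4), the collagen arrays lay below them and the Matrigel arrays lower still. It fell by 1.11 ± 0.11 or 2.16-fold on Matrigel (limma adjusted p = 0.000984) and by 0.55 ± 0.10 or 1.47-fold on collagen I (limma adjusted p = 0.0131). Without collagen replicate 2 or 3 the collagen difference was -0.48 or -0.53 and did not pass (adjusted p = 0.0576 or 0.0543).

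LTBP2, unlike LTBP1, does not bind latent TGF-beta and sits on fibrillin microfibrils. Ltbp2 read 10.73 and 10.30 on Matrigel, 10.84, 11.04 and 10.96 on collagen I and 9.58, 9.80, 9.38 and 10.08 on plastic. All coated arrays lay above all plastic arrays. It rose by 0.80 ± 0.19 or 1.74-fold on Matrigel (limma adjusted p = 0.0324) and by 1.23 ± 0.17 or 2.35-fold on collagen I (limma adjusted p = 0.00381). Same-letter differences were 1.15 (A) and 0.92 (S) for Matrigel minus plastic and 1.26 (A), 1.24 (P) and 0.88 (Z) for collagen I minus plastic. The Matrigel call was lost on leaving out Matrigel array 1, any collagen array, or plastic array 1 or 2 (adjusted p between 0.0504 and 0.213).

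The sequence upstream of Ltbp1 is shown because this latency gene fell on both coatings and its window held 1 of the motifs searched, the cyclic AMP response element, set in capitals. It comes from RefSeq (GRCr8, chr6:26177347-26177551, minus strand) and runs 5′ to 3′ up to the last base before the gene's annotated span.
Ltbp1 upstream: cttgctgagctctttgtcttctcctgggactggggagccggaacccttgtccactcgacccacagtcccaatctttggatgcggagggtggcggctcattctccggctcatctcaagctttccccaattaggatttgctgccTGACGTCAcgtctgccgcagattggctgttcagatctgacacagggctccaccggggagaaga
A match is a string of letters, not a measured binding site.

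**Figure D2:**
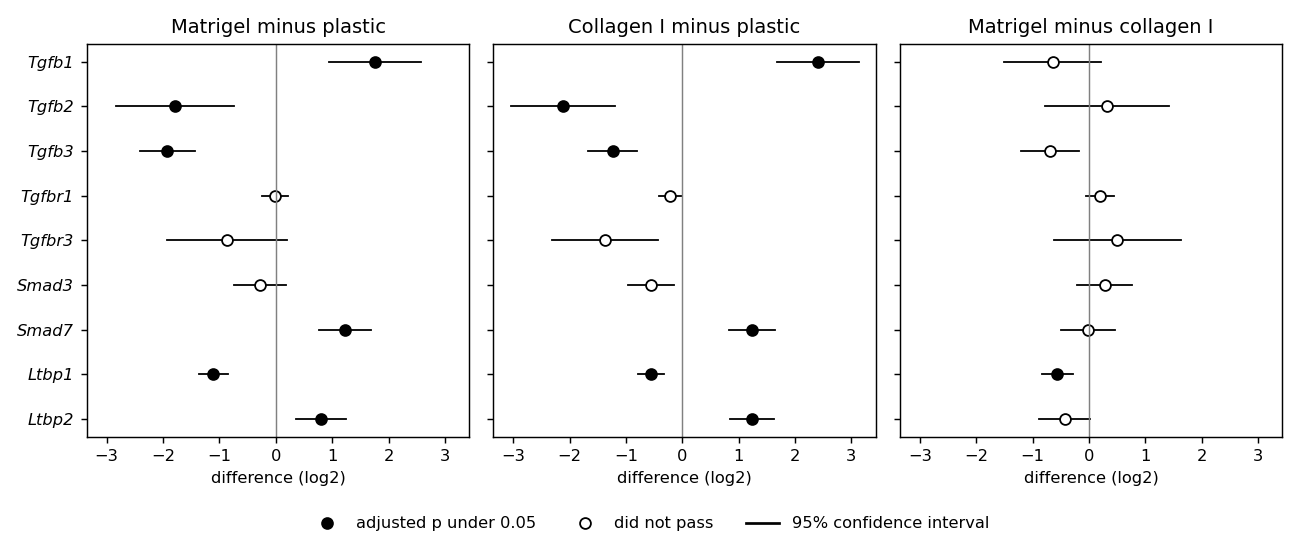
Fitted log2 differences (horizontal axes) of the 9 measured TGF-beta genes in the 3 comparisons, with 95% confidence intervals from limma; filled points passed an adjusted p of 0.05. The same 6 genes are filled in both comparisons with plastic and only Ltbp1 is filled for Matrigel minus collagen I.

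Between the coatings 1 of 9 genes passed, a lower one, where 2.67% of all genes did (1.21% higher and 1.45% lower). The Matrigel and collagen arrays did not overlap for 4 of 9 genes, 1 above and 3 below, against 29.5% of all genes (13.0% above and 16.4% below), and 2 of 9 had an unadjusted p under 0.05, against 16.9%. Ltbp1 was lower on Matrigel than on collagen I, with a difference of -0.56 ± 0.12 (limma adjusted p = 0.0490), a call so near the threshold that it was lost when any single array was left out (adjusted p from 0.0514 to 0.185). Matrigel arrays were also all below the collagen arrays for Tgfb3, with a difference of -0.68 and a 95% interval from -1.20 to -0.17 (adjusted p = 0.165), and for Ltbp2, with a difference of -0.43 from -0.89 to 0.03 (adjusted p = 0.322). Tgfb1 differed by -0.65 from -1.51 to 0.22 (adjusted p = 0.438) and Tgfb2 by 0.33 from -0.77 to 1.43 (adjusted p = 0.796). For Smad7 the Matrigel mean was 8.16 ± 0.29 (SD, n = 2) and the collagen mean 8.17 ± 0.16 (SD, n = 3), a difference of -0.01 with an interval from -0.49 to 0.47 (limma adjusted p = 0.995). For Tgfbr3 the difference was 0.50, from -0.63 to 1.63 (adjusted p = 0.673). Misses of the threshold here do not show that the coatings act alike, since the intervals of Tgfb1, Tgfb2 and Tgfbr3 each reach past a difference of 1.

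Other genes of latent complex assembly and activation moved in both directions. Of 21 measured, 4 rose and 3 fell on Matrigel with a median difference of 0.27, against -0.01 over all genes, and 5 rose and 4 fell on collagen I with a median of -0.02, against 0.00 over all genes. Of all genes 4.52% rose and 5.85% fell on Matrigel and 2.95% rose and 3.17% fell on collagen I. The list also holds Tgfbi, a matrix gene induced by TGF-beta, which is among the rises counted on each coating. Ltbp3, which encodes another latent TGF-beta binding protein, rose by 0.97 ± 0.17 on Matrigel and 0.64 ± 0.15 on collagen I (limma adjusted p = 0.00811 and 0.0379). Its collagen call was lost without any array but plastic array 3. Without Matrigel array 2 its Matrigel rise was 0.88 and did not pass. Furin, the convertase that cleaves the TGF-beta propeptide, averaged 10.01 on Matrigel, 9.76 on collagen I and 9.11 on plastic, a rise of 0.90 ± 0.13 (adjusted p = 0.00409) and 0.66 ± 0.12 (adjusted p = 0.0118). Mmp9, a gelatinase able to release latent TGF-beta, rose by 3.11 ± 0.53 and 2.34 ± 0.47 (adjusted p = 0.00825 and 0.0211). Tgm2, the transglutaminase that fixes latent complexes to matrix, fell by 2.43 ± 0.52 and 2.88 ± 0.46 (adjusted p = 0.0200 and 0.00740), and Adamts1 by 2.09 ± 0.28 and 1.73 ± 0.24 (adjusted p = 0.00275 and 0.00438). Itgb8, whose integrin releases TGF-beta from its latent complex, fell by 1.53 ± 0.34 on collagen I (adjusted p = 0.0321). On Matrigel it differed by 0.16 (adjusted p = 0.867). Thbs1, the thrombospondin able to activate TGF-beta, differed by -0.37 on Matrigel (adjusted p = 0.320) and 0.22 on collagen I (adjusted p = 0.582). Without Matrigel replicate 1 the Matrigel count was 4 of 21, and without plastic replicate 1 or 2 the collagen count was 5 of 21. The Mmp9 call was lost on Matrigel without Matrigel array 1 (adjusted p = 0.0773), and on collagen I without collagen array 2 and without plastic array 1, 2 or 4 (adjusted p between 0.0578 and 0.0668). The Tgm2 call was lost on Matrigel without Matrigel array 1 or plastic array 1 (adjusted p between 0.0527 and 0.156), and the Itgb8 call on collagen I without collagen array 2 or 3 and without plastic array 1, 2 or 3 (adjusted p between 0.0675 and 0.118).

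Among 18 receptor genes of the family, co-receptors and receptor partners, 4 rose and 3 fell on Matrigel (median 0.03), and 4 rose and 2 fell on collagen I (median 0.01), where 10.4% and 6.12% of all genes passed in either direction. Bambi, a pseudoreceptor that dampens TGF-beta signals, stood at 6.07 and 5.87 on Matrigel, 7.31, 7.02 and 6.72 on collagen I and 4.98, 4.70, 4.78 and 5.49 on plastic. It rose by 0.98 ± 0.23 on Matrigel (adjusted p = 0.0306) and by 2.03 ± 0.20 on collagen I (adjusted p = 0.000856). Nrp2 rose by 0.86 ± 0.13 and 0.77 ± 0.11 (adjusted p = 0.00479 and 0.00577) while Nrp1, the other neuropilin gene, fell by 0.99 ± 0.14 and 1.01 ± 0.13 (adjusted p = 0.00425 and 0.00268). The BMP type II receptor gene Bmpr2 rose by 0.57 ± 0.09 and 0.53 ± 0.08 (adjusted p = 0.00595 and 0.00582), and Acvrl1, an alternative type I receptor gene, fell by 0.89 ± 0.11 and 0.51 ± 0.10 (adjusted p = 0.00223 and 0.0186). Eng, the endoglin co-receptor gene, differed by 0.17 on Matrigel (adjusted p = 0.316) and 0.00 on collagen I (adjusted p = 0.995). Its value was 10.22961 on Matrigel array 2, collagen array 3 and plastic arrays 2 and 4 alike, so these small differences do not show that the gene was level. The Bambi call was lost on Matrigel without either Matrigel array, without collagen array 2 and without plastic array 1, 2 or 3 (adjusted p between 0.0544 and 0.171), and the Acvrl1 call on collagen I without collagen array 1 or 2 and without plastic array 1, 2 or 4 (adjusted p between 0.0527 and 0.0660). The Matrigel count was 4 of 18 without Matrigel replicate 2.

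Most SMAD genes and SMAD regulators did not pass. Of 20 measured besides Smad3 and Smad7, 2 rose and 2 fell on Matrigel (median -0.04), and 1 rose and 1 fell on collagen I (median 0.07). The share of all genes that passed was 10.4% on Matrigel and 6.12% on collagen I, so the collagen count is near that of all genes. Pmepa1, a target of SMAD signalling that feeds back to restrain it, read 9.41 and 8.63 on Matrigel, 8.86, 9.12 and 9.72 on collagen I and 6.98, 7.88, 6.82 and 7.89 on plastic. Its coated arrays all lay above the plastic arrays, and it rose by 1.63 ± 0.39 on Matrigel (adjusted p = 0.0319) and by 1.84 ± 0.34 on collagen I (adjusted p = 0.0149). Sptbn1, a spectrin gene whose product carries SMADs, fell by 0.48 ± 0.07 and 0.58 ± 0.06 (adjusted p = 0.00459 and 0.00127). Smad2 and Smad4 differed by -0.10 and -0.16 on Matrigel (adjusted p = 0.452 and 0.208) and by -0.01 and -0.06 on collagen I (adjusted p = 0.973 and 0.657). Smad2 had the same value, 7.58573, on all 3 collagen arrays and on plastic array 3, so its small differences do not show that the gene was level. Pmepa1 lost its Matrigel call without Matrigel array 1, without collagen array 2 and without plastic array 1 or 3 (adjusted p between 0.0551 and 0.211), and its collagen call without collagen array 2 or 3 and without plastic array 1 (adjusted p between 0.0525 and 0.0606). The count of this list was 2 of 20 on Matrigel without Matrigel replicate 1 and 1 of 20 on collagen I without any of the 3 arrays just named, and with the title letter as a fixed block it was 5 of 20 on collagen I (3 of 20 as a random block).

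Genes known to be induced by TGF-beta moved in both directions. Of 36 measured, 10 rose and 8 fell on Matrigel (median 0.06), and 8 rose and 2 fell on collagen I (median 0.27). Over all genes 4.52% rose and 5.85% fell on Matrigel, and 2.95% and 3.17% on collagen I. The matrix gene Tgfbi, named for its induction by TGF-beta, rose by 2.34 ± 0.38 on Matrigel (adjusted p = 0.00646) and by 1.86 ± 0.33 on collagen I (adjusted p = 0.0129). The cytokine gene Il11 stood at 5.84 and 5.64 on Matrigel, 7.01, 7.37 and 6.72 on collagen I and 4.93, 4.72, 4.96 and 4.96 on plastic. It rose by 0.85 ± 0.17 on Matrigel (adjusted p = 0.0144) and by 2.14 ± 0.15 on collagen I (adjusted p = 0.000197), and was lower on Matrigel than on collagen I, with a difference of -1.29 (adjusted p = 0.0138). The transcription factor gene Snai1 rose by 1.09 ± 0.14 and 0.87 ± 0.12 (adjusted p = 0.00211 and 0.00383). Edn1, the endothelin gene, fell by at least 3.08 on Matrigel, where it was dim (adjusted p = 0.000769), and by 2.77 ± 0.32 on collagen I (adjusted p = 0.00163), and Igfbp3 fell by 2.28 ± 0.20 and 1.76 ± 0.17 (adjusted p = 0.000553 and 0.000801).

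The contractile gene Tagln read 4.17 and 4.10 on Matrigel, both dim, 8.12, 9.55 and 8.89 on collagen I and 7.76, 9.38, 7.43 and 9.26 on plastic. It fell by at least 4.21 on Matrigel (adjusted p = 0.00342) and differed by 0.40 on collagen I (adjusted p = 0.759). Acta2, the smooth muscle actin gene, differed by -1.23 on Matrigel (adjusted p = 0.0892) and 0.35 on collagen I (adjusted p = 0.668). For Ccn2, a matricellular gene long used as a TGF-beta readout, the values were -1.13 (adjusted p = 0.232) and 0.69 (adjusted p = 0.490), and the collagen chain gene Col1a1 differed by -0.23 (adjusted p = 0.422) and 0.03 (adjusted p = 0.931). Skil was not analysed here. Without Matrigel replicate 1 the Matrigel count was 9 of 36, Tgfbi did not pass there (adjusted p = 0.0590), nor did Il11 (adjusted p = 0.106). The difference of Il11 between the coatings missed the threshold without Matrigel array 2 (adjusted p = 0.0535).

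**Figure D3:**
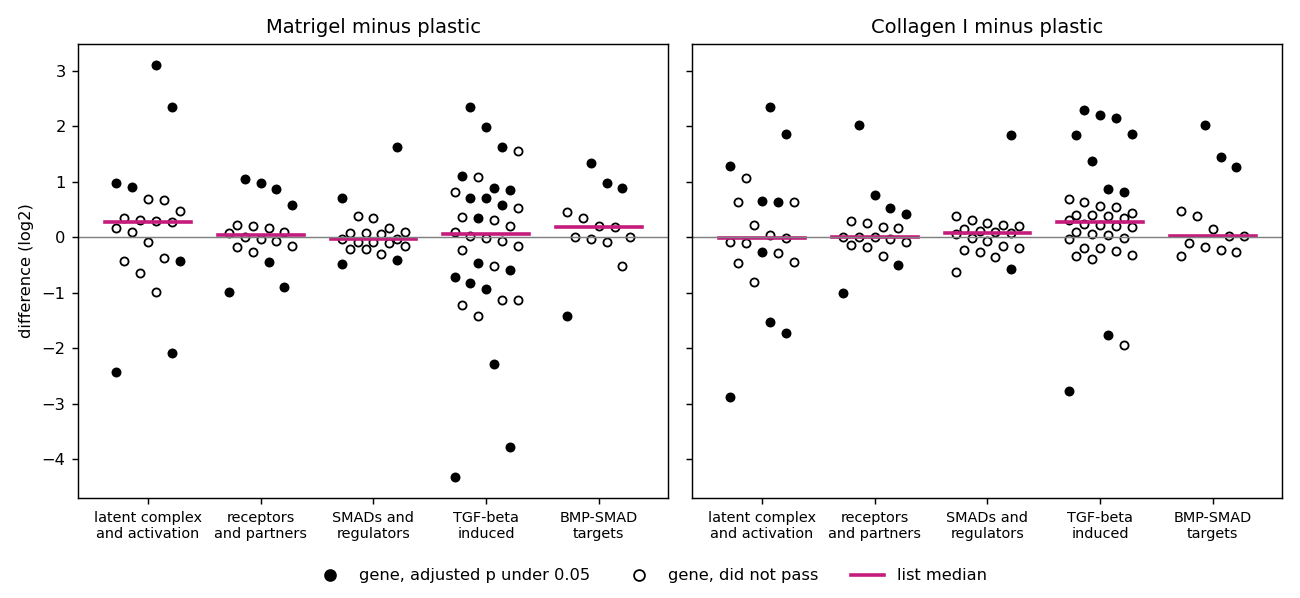
Fitted log2 differences (vertical axis) of single genes in 5 lists of TGF-beta and BMP pathway genes on Matrigel (left) and collagen I (right) minus plastic, without the 9 genes described first; filled points passed an adjusted p of 0.05 and the coloured line is the list median. The TGF-beta induced list has 10 rises and 8 falls past the threshold on Matrigel and 8 rises and 2 falls on collagen I, and list medians lie between -0.04 and 0.27; points of genes that are dim on a surface are fitted values.

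Of 13 genes known as targets or regulators of the related BMP signal, 3 rose and 1 fell on Matrigel (median 0.18), where 10.4% of all genes passed, and Id2, Bambi and Nog rose on collagen I (median 0.02), where 6.12% did. The fall was that of Grem1, which encodes the BMP antagonist gremlin, by 1.42 ± 0.26 on Matrigel (adjusted p = 0.0114), lost without Matrigel array 1 (adjusted p = 0.0925). Id2, a transcription inhibitor gene induced by BMP, read 8.45 and 8.19 on Matrigel, 9.15, 9.27 and 8.96 on collagen I and 7.95, 7.84, 7.65 and 8.02 on plastic. It rose by 1.26 ± 0.12 on collagen I (adjusted p = 0.000598), while the Matrigel difference of 0.46 did not pass (adjusted p = 0.0630). Id1 rose by 0.89 ± 0.24 on Matrigel (limma adjusted p = 0.0482) and did not pass on collagen I (0.47, limma adjusted p = 0.275). The Id1 call was lost without either Matrigel array, collagen array 2 or any plastic array. Nog, which encodes the BMP antagonist noggin, rose by 1.34 ± 0.29 on Matrigel and 1.44 ± 0.26 on collagen I (adjusted p = 0.0213 and 0.0124), though not without Matrigel replicate 1 (0.99, adjusted p = 0.162) nor without collagen replicate 3 (1.24, adjusted p = 0.0501). By limma 0 of 13 passed on Matrigel without Matrigel replicate 1, 5 of them having an unadjusted p under 0.05, and 2 of 13 passed without Matrigel replicate 2, collagen replicate 2 or plastic replicate 1, 2 or 3. Some genes stand in more than 1 of these lists, among them Bambi, Pmepa1 and Tgfbi.

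Macrophages are another source of Tgfb1, so a list of 25 macrophage genes was set beside it. The mean of the list was 7.60 and 7.86 on the Matrigel arrays, 6.34, 6.50 and 7.25 on the collagen arrays and 6.96, 6.26, 7.31 and 6.31 on the plastic arrays. It was highest on Matrigel, while the collagen and plastic arrays overlapped. Its summed level lay between log2 13.1 and 13.5 on Matrigel, 11.9 and 12.7 on collagen I and 11.7 and 13.03 on plastic, and 25, 24 and 24 of 25 genes were above the dim level on those surfaces, none of the defining markers Cd68, Ptprc, Csf1r and Itgam being dim. On Matrigel, where 4.52% of all genes rose, 5 of 25 rose (Itgam, Itgb2, Laptm5, Lcp1 and Coro1a) with a median difference of 1.04, and on collagen I only Coro1a rose, with a median of 0.03. All 5 Matrigel calls were lost without either Matrigel array, and each also without at least 1 plastic array (adjusted p between 0.0508 and 0.200). The collagen call of Coro1a was lost without any array but collagen array 1 or with the title letter as a fixed block (adjusted p between 0.0507 and 0.119). Among the collagen arrays the one with the highest list mean (7.25) had the highest Tgfb1 (11.24), and among the plastic arrays the one with the highest list mean (7.31) had the lowest Tgfb1 (7.80). The list mean was higher on both Matrigel arrays than on all others, so a fit with it as a covariate cannot fully tell the list from the Matrigel surface. In that fit the Matrigel difference of Tgfb1 was 1.89, against 1.76 without the covariate, and did not pass (adjusted p = 0.135), with 3 of 9 genes passing. On collagen I the 6 genes that passed without the covariate also passed with it. Matrigel calls in that fit numbered 1 of 21 latency genes, 2 of 18 receptor genes, 4 of 36 TGF-beta induced genes, 1 of 13 BMP genes and, by limma, 0 of 20 SMAD genes, 5 of those having an unadjusted p under 0.05, where 366 of all 14506 genes passed against 1504 without the covariate.

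**Figure D4:**
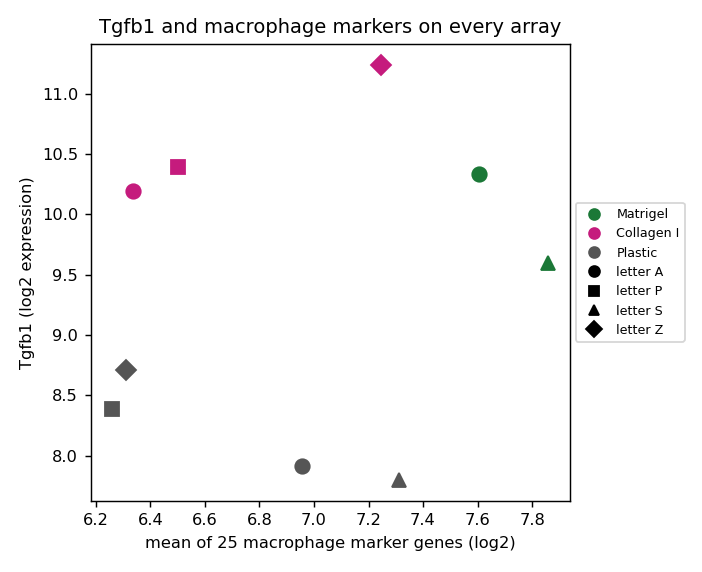
Log2 level of Tgfb1 (vertical axis) against the mean log2 level of 25 macrophage genes (horizontal axis) on the 9 arrays, by surface and title letter; neither axis starts at 0. The Matrigel arrays lie at the highest list means, and the collagen and plastic arrays overlap along the horizontal axis and not along the vertical one.

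Genes of other cell types also moved. Of 12 islet genes 8 rose on Matrigel, where 4.52% of all genes did, with list means of 6.50 to 7.78 on Matrigel, 5.36 to 6.03 on collagen I and 5.04 to 5.98 on plastic. Of 14 acinar genes 2 rose, with list means of 3.96 to 4.85 on Matrigel, 3.35 to 3.78 on collagen I and 3.34 to 3.57 on plastic. Among 4 platelet genes, only Pf4 passed, rising by 1.78 ± 0.36 on Matrigel (adjusted p = 0.0170), though not without either Matrigel array (adjusted p = 0.0661 and 0.103). Above the dim level were 2, 2 and 1 of these 4 on Matrigel, collagen I and plastic. Of 8 lymphocyte genes 0 were above the dim level on any surface. For the lists that follow, 5.85% of all genes fell on Matrigel, and 2.95% rose and 3.17% fell on collagen I. Of 6 mesothelial genes 2 fell on each coating (medians -0.63 on Matrigel and -0.79 on collagen I), with summed levels of log2 7.94 to 8.21 on Matrigel, 7.92 to 8.05 on collagen I and 8.68 to 9.09 on plastic. Of 6 Schwann cell genes 1 rose on each coating, with summed levels of log2 7.41 to 7.44 on Matrigel, 7.53 to 8.31 on collagen I and 6.89 to 7.22 on plastic. Of 15 stellate cell genes 12 were above the dim level on Matrigel, 12 on collagen I and 13 on plastic, and 1 rose and 4 fell on Matrigel and 1 fell on collagen I. Their list means were 8.49 to 8.69 on Matrigel, 8.81 to 9.07 on collagen I and 8.96 to 9.19 on plastic. Within them Des, the desmin gene that marks stellate cells, fell by 1.93 ± 0.13 on Matrigel (adjusted p = 0.000208) and by 0.77 ± 0.12 on collagen I (adjusted p = 0.00580). The part of these cell types in the TGF-beta values was not tested.

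Some pairs of the TGF-beta genes varied together among the 9 arrays. Across them, which share 3 surfaces and so are no independent points, Tgfb1 correlated with Ltbp2 at r = 0.969, with Smad7 at r = 0.959 and with Tgfbr3 at r = -0.908. Tgfb3 correlated with Ltbp1 at r = 0.889. Other pairs were weaker, such as Tgfbr1 with Ltbp1 (r = 0.179) and Tgfb3 with Tgfbr1 (r = 0.272). Surface means were not removed, so these values also carry the differences between surfaces given above. Predicted genes with LOC or RGD names were passed over in the lists that follow. Over the other genes the levels most like those of Tgfb1 were those of Cd44, a hyaluronan receptor gene (r = 0.994), Postn, which encodes the matrix protein periostin (r = 0.994), Dpysl3 (r = 0.984), Dlg4 (r = 0.980) and Pmepa1 (r = 0.979). Postn read 8.82 and 7.92 on Matrigel, 8.62, 8.76 and 9.96 on collagen I and 6.50, 7.03, 6.38 and 7.38 on plastic, so that it stood highest on the collagen array where Tgfb1 was highest. The genes most like Tgfb2 were Nuak2 (r = 0.974), Gca (r = 0.953), Lpar6 (r = 0.948), Cited2 (r = 0.948) and Ntm (r = 0.942). Those most like Tgfb3 were Lmo4 (r = 0.970), Cnn3 (r = 0.970), the tissue factor gene F3 (r = 0.968), Ddah1 (r = 0.964) and Qdpr (r = 0.964). These correlations are descriptions of 9 arrays and carry no test.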

How the data were processed

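Expression was measured on 9 arrays of rat pancreatic stellate cells. The deposited log2 values were made by the authors with RMA, per the submitters' processing notes. Neither the program used nor a genome build is given in the sources used here, and no further normalisation was applied. Of 29215 entries, 15310 were paired with 1 symbol, 323 with several and 13582 with none. The entry with the highest mean was kept for each gene, which left out 804 and gave 14506 genes. A RefSeq table (GRCr8) held 15279 of those with 1 symbol, and 0 symbols were updated from it.

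The linear model (limma 3.58.1, R 4.3.3) held 1 mean for each surface and all 9 arrays, leaving 6 residual degrees of freedom. Variances were moderated by empirical Bayes with no trend, and p-values were adjusted by Benjamini-Hochberg over all genes of a comparison. A call is a two-sided adjusted p under 0.05. Where a surface mean was under log2 4.25, a difference is given as a lower bound. Precision is limited by the number of arrays. Tested on simulated data with 200 of 14506 genes changed, the fit recovered 83%, 96% and 81% of genes changed by 1 for Matrigel against plastic, collagen against plastic and Matrigel against collagen, with 8, 11 and 11 false calls. The changed genes were drawn at random, each with its own spread and independent noise. These shares need not hold for noisier genes such as Tgfb2 and Tgfbr3, with SE of 0.46 and 0.47 on Matrigel against plastic.

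The genes and lists were chosen with earlier results of these data known. The rule for naming took the TGF-beta genes whatever their values, up to 4 genes of each pathway list with the smallest p per comparison, a few pathway genes and cell type markers whatever their values, and the 5 genes most like each ligand (predicted LOC and RGD genes passed over). The text prints a part of the pathway genes it named. Ltbp3, Mmp9, Itgb8, Itgb2, Laptm5, Lcp1 and Coro1a were named after their values were seen.

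Replicates are numbered in accession order, which pairs nothing. The title letters may pair arrays, though the values do not settle it. Deviations from the surface means correlated between same-letter collagen and plastic arrays at r = 0.196 (A), 0.234 (P) and 0.269 (Z). Between arrays of other letters r ran from -0.243 to 0.243. The highest of these, collagen A with plastic S, was above the same-letter values of A and P. Letters were read as possible pairs there. The letter as a block is an alternative, as are re-centring, quantile normalisation applied again, filters, fits on the compared surfaces or shared letters alone, trend, array weights, a macrophage covariate, a minimum difference of 1 and leaving out each array.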

Additional observations from a re-analysis of the deposited data

How the results depend on the processing

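Over 21 alternatives for each of the 9 genes in 3 comparisons, 500 values kept their direction and side of the threshold, 42 lost a call, 5 gained a call and 20 changed sign, the last among differences that had not passed. Some alternatives are the same fit, so these values are not all separate. On collagen I, leaving out either Matrigel array equals the fit on the compared surfaces. Shared letters there equal leaving out plastic replicate 3. The count of TGF-beta genes passing on Matrigel against plastic was 3 with the macrophage covariate and 2 to 6 when 1 array was left out (2 without Matrigel replicate 1). On collagen I it was 5 to 7 without 1 array. Between the coatings it was 0 without any 1 array, and also under quantile normalisation applied again, with only the compared surfaces, array weights, the fixed replicate block by title letter, shared letters, the covariate or a minimum difference of 1, with 1 to 4 of 9 genes at an unadjusted p under 0.05 in limma. Genes passing among all tested, 1504 on Matrigel, were 628 with shared letters, 366 with the covariate, 431 with a minimum difference of 1 and 759 to 1461 without 1 array; 888 on collagen I were 316 with a minimum difference of 1 and 552 to 870 without 1 array. Between the coatings 387 were 0 with only the compared surfaces (2094 at an unadjusted p under 0.05), 0 with shared letters (2044 unadjusted), 257 with array weights, 66 with the fixed replicate block, 1 with the covariate, 98 with a minimum difference of 1 and 68 to 352 without 1 array. On Matrigel and collagen I, 6 and 7 of the 9 genes passed with the fixed replicate block and 6 and 6 with the random one. With only the compared surfaces, or with array weights, 4 of 9 passed on Matrigel. Calls lost there were Tgfb2 (limma adjusted p = 0.0563 and 0.0776) and Ltbp2 (limma adjusted p = 0.0888 and 0.0564). Tgfb2 also lost its call on shared letters (limma adjusted p = 0.192) and with the covariate (limma adjusted p = 0.335). The signs that turned were as follows. Tgfbr1 on Matrigel against plastic was 0.03005 under quantile normalisation, 0.0149 with the fixed replicate block, 0.0754 with shared letters, 0.131 with the covariate and -0.0700 to 0.0554 without 1 array, and Smad3 there was 0.0271 with the covariate. Between the coatings Smad7 was 0.0444 under quantile normalisation, 0.0111 with array weights, 0.272 with the fixed and 0.04735 with the random replicate block, 0.33 with shared letters, 0.15 with the covariate and -0.21 to 0.19 without 1 array. Tgfbr3 was -0.14 with the fixed replicate block, -0.86 with shared letters and -0.36 to 1.36 without 1 array; Tgfb1 was 0.14 with shared letters and Tgfb2 was -0.0805 to 0.649 without 1 array. The causes were not tested. Matrigel and plastic arrays of 1 letter correlated at -0.131 (A) and 0.406 (S). Deviations of the 2 Matrigel arrays from their mean mirror each other, so these values cannot decide whether letters pair arrays. The same-letter differences and letter blocks given for Matrigel therefore do not rest on known pairs.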
